A study of Mus musculus with 4 samples.

Results

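The nuclear genes of mitochondrial oxidative phosphorylation were examined in mouse brain tissue on 4 whole-transcript arrays. The members were every gene on the array whose symbol began with Nduf, Uqcr, Cox followed by a digit from 4 to 8, or Atp5, together with Sdha, Sdhb, Sdhc and Sdhd. Table entries that carried 1 gene symbol gave 114 probe sets for 89 such genes, out of 21789 probe sets for 19938 genes in all, and where a gene had several probe sets the one with the highest mean over the 4 arrays stood for it. The genes were sorted by textbook knowledge into complex I (34 genes), complex II (4), complex III (8), complex IV (17), complex V (17) and 9 factors, which assemble the complexes or are not fixed subunits.

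The study injected ICR mice intraperitoneally with ketamine at 30 mg per kg each day for 3 months, from an age of 1 month, and set them against mice given saline. Each group had 2 arrays, and the labels give the tissue as prefrontal cortex. The labels give the mice as female, whereas the methods of the study describe males. Titles and source names of the 4 samples contradict each other on which arrays had ketamine, so the groups are named here by title as "titled ketamine" and "titled saline", and every direction below would turn round if the source names were right. Nothing in the labels says more of the replicates than that they are separate samples, so the p-values measure the spread between these samples only, and 2 arrays against 2 cannot give a two-sided exact permutation p below 0.333.

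Values are log2 robust multi-array average (RMA) signals, and a difference is the titled ketamine mean minus the titled saline mean on that scale. The array medians over all 21789 probe sets were 6.04 and 6.04 on the titled ketamine arrays, against 5.90 and 5.91 on the titled saline arrays, and the median difference over all probe sets was 0.13. The cell type markers also split by title. Tbr1, which specifies projection neurons of the cortex, had 3.73 and 3.69 on the titled ketamine arrays, against 8.37 and 8.44 on the titled saline arrays, and 6 of the 7 measured projection neuron markers were lower in limma's test. Cbln3, a cerebellin of cerebellar granule cells, had 11.13 and 11.17 on the titled ketamine arrays, against 5.75 and 4.52 on the titled saline arrays, and 8 of 8 granule cell markers and 5 of 5 Purkinje cell markers were higher. All 4 measured striatal and all 5 microglial markers were lower, while 5 of 6 choroid plexus markers were higher. On the titled ketamine arrays the markers thus go against the tissue label, and the makeup of the tissue and the treatment cannot be told apart in any result below. In bulk tissue, fewer cells of a type and less RNA per cell cannot be told apart either.

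Oxidative phosphorylation is the last stage of respiration and takes place in the inner mitochondrial membrane. Complex I takes electrons from NADH and complex II takes them from succinate. Both pass them to coenzyme Q, complex III hands them to cytochrome c, and complex IV gives them to oxygen. The protons pumped on the way drive ATP synthase, complex V. A few core subunits are encoded in mitochondrial DNA and the rest in the nucleus, and neurons draw most of their ATP from this pathway.

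Promoters of respiratory genes are known for motifs of a few shared transcription factors, so the sequence around the start site is shown for 5 members whose values follow. RefSeq windows (build GRCm38.p6) of 250 bases before to 50 bases after a start were available for 73 of the 89 genes, in 78 windows. They are printed 5′ to 3′ on the strand of the gene, with motif matches in capitals. Sdhd, on the minus strand at chr9:50603800-50604099, is shown because it was the highest subunit of complex II. It has a match to the NRF1 motif starting 79 bases before the start site and an ETS match, read on the other strand, starting 46 bases before it.
Sdhd: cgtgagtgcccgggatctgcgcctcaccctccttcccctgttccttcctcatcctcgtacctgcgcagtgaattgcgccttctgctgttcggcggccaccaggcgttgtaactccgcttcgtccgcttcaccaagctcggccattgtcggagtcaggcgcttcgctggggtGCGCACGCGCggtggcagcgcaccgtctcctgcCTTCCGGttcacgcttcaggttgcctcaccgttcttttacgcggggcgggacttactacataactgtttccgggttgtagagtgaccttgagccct
Cox6a1, on the minus strand at chr5:115348909-115349208, is the widely used partner of a muscle isoform. It has 2 NRF1 matches, starting 162 and 117 bases before the start site, and an ETS match starting 16 bases before it.
Cox6a1: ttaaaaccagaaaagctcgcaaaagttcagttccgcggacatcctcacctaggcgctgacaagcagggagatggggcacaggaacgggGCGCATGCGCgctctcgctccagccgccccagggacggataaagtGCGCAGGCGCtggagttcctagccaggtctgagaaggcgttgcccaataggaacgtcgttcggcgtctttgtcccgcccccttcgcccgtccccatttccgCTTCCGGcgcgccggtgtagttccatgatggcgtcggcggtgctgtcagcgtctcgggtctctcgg
Ndufs4, on the minus strand at chr13:114388045-114388344, was among the highest of complex I and has a YY1 match starting 35 bases after the start site.
Ndufs4: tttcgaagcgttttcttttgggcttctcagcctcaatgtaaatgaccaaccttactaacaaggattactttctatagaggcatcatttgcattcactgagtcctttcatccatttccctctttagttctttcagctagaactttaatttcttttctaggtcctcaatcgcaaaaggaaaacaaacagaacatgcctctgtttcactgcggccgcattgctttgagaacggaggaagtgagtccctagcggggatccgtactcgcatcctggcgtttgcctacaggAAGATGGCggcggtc
Atp5l, on the minus strand at chr9:44920693-44920992, was the highest of complex V and has 2 ETS matches, starting 212 bases before and 24 bases after the start site.
Atp5l: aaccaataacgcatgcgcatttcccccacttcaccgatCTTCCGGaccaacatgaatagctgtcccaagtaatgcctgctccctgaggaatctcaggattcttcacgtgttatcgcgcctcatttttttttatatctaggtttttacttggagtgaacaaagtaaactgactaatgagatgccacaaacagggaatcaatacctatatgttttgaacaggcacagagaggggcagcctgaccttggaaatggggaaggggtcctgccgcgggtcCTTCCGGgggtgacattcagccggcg
Cox7a1, on the plus strand at chr7:30183921-30184220, was among the highest of all members and has no match to the 3 motifs, so it carries no capitals.
Cox7a1: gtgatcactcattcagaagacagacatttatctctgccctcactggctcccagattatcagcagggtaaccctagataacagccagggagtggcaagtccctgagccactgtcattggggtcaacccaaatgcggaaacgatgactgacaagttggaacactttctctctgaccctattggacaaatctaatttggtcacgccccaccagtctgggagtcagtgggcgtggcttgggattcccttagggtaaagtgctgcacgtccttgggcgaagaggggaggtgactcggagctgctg

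The motifs searched on both strands were the near-palindromic NRF1 motif as capitalised above, with 1 free base, CCGGAAG for ETS factors such as the nuclear respiratory factor Gabpa, and AAGATGGC for YY1. In the printed windows no match of one motif overlapped a match of another. The NRF1 motif stood in 24.4% of the members' windows, against 4.60% of all 32851 mouse windows. The ETS motif stood in 23.1% of the members' windows, against 8.86% of all windows, and the YY1 motif in 12.8%, against 2.75%. All 3 motifs were thus held by a larger share of the members' windows than of windows at large. The 18 genes with an NRF1 match had a median difference of 0.24, against 0.26 for the matched genes without one. The same medians were 0.25 and 0.26 for the 18 genes with and those without an ETS match, and 0.25 and 0.25 for the 10 genes with and those without a YY1 match. These are matches of letters and not sites shown to be bound.

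Members were called higher in titled ketamine arrays or did not pass the test, and none was called lower. In limma's test with Benjamini-Hochberg adjustment over all 21789 probe sets, 20 of the 89 genes (22.5%) were higher at an adjusted p below 0.05, 0 were lower and 69 did not pass. At an unadjusted p below 0.05 the counts were 38 (42.7%) and 0, against 32.0% and 12.6% of all probe sets. Over all probe sets, 23.4% were called higher and 9.71% lower, so the share of members called higher was close to the background. With limma's trend and robust options, which set the error differently, 41 members (46.1%) were called higher, against 26.8% of all probe sets, so this reading depends on how the error is estimated. With either titled ketamine array left out, limma called 0 of the members and also 0 of all 21789 probe sets, so these fits say nothing particular of the members. At an unadjusted p below 0.05, 30 members (33.7%) were then higher without replicate 1, against 18.7% of all probe sets, and 17 (19.1%) without replicate 2, against 19.9%. Without titled saline replicate 1, 7 members (7.87%) were called higher, against 14.6% of all probe sets, and without replicate 2, 6 (6.74%), against 13.0%. At a size of 1.3-fold, 16 members (18%) were higher and 0 were lower, against a background of 24.3% and 9.87%. The median member difference was 0.31 without titled ketamine replicate 1, against 0.13 over all probe sets. It was 0.21 without titled ketamine replicate 2, against 0.13.

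The sign was shared far more widely than the call. The difference was above 0 for 87 of the 89 members (97.8%), while 65.7% of all probe sets lay above 0. In 71 members (79.8%) both titled ketamine arrays were above both titled saline arrays, in 0 they were both below, and in 18 the groups overlapped, against a background of 48.4% apart and higher and 21.5% apart and lower. The median member difference was 0.25 (1.19-fold), with an interquartile range of 0.15 to 0.34 and a range of -0.10 to 0.96. The corresponding median over all probe sets was 0.13 (1.10-fold), and 70 members lay above it and 19 below. The middle of the members was therefore a little above the middle of the array, and the members also lay closer together. Their interquartile range spanned 0.191, against 0.462 over all probe sets.

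Centring each array on its own median took part of the shift away. After centring, 69 of 89 members (77.5%) lay above 0, against 49.5% of all probe sets, and the median member difference was 0.11 (1.08-fold). Then 9 members (10.1%) were called higher and 0 lower by limma, and 6 passed 1.3-fold. Of the members, 14 (15.7%) were higher and 0 lower at an unadjusted p below 0.05, against 20.6% and 20.6% of all probe sets. The centred background was 14.7% called higher and 14.7% lower, and 15.2% and 15.0% past 1.3-fold. The groups did not overlap in 46 members that were higher and 7 that were lower after centring, against backgrounds of 33.1% and 34.0%. Over the value scale as deposited, median centring, quantile normalization and cyclic loess, 67 members kept a difference above 0 under all 4. Limma called 8 members under all 4. Neither count is given here over all probe sets, so no joint background stands beside them. With a single scaling, 15.2% of all probe sets were called higher after quantile normalization and 14.4% after loess. The 8 were Ndufc2, Ndufs4, Ndufs1, Cox7b2, Cox7a1, Cox6b2, Cox4i2 and Cox8c. Of these 8, 5 are complex IV isoforms known from muscle, lung or testis and 3 are complex I subunits.

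**Figure D1:**
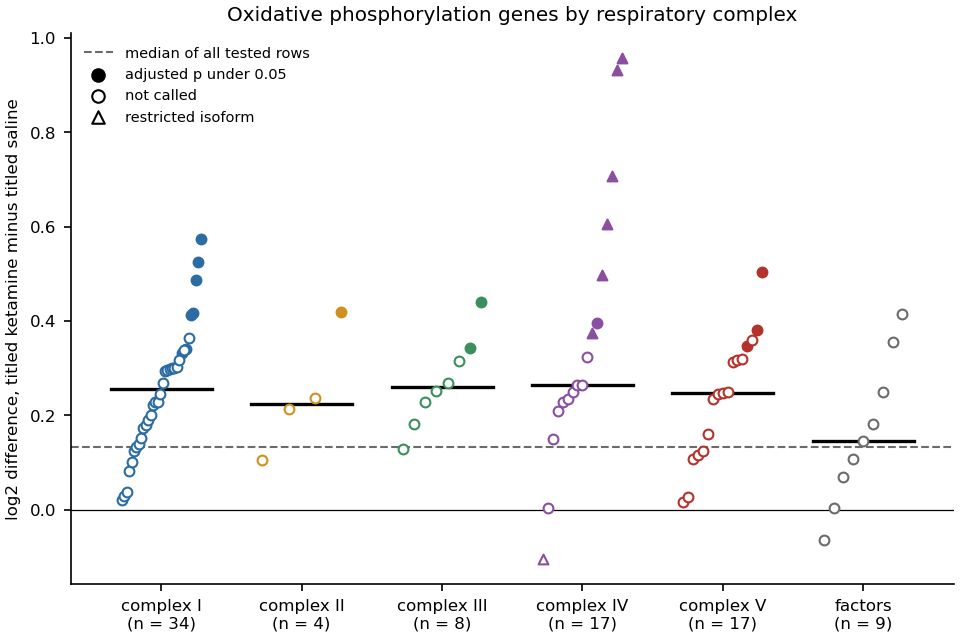
Log2 difference, titled ketamine minus titled saline, for each of the 89 genes (points) by respiratory complex, with the median of each complex (black bar) and of all tested probe sets (dashed line at 0.13). Filled points passed an adjusted p of 0.05, triangles are isoforms known from muscle, lung or testis, and the medians of the 5 complexes lie between 0.22 and 0.26.

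On the deposited scale the 5 complexes had close median differences, 0.26 in complex I, 0.22 in complex II, 0.26 in complex III, 0.26 in complex IV and 0.25 in complex V. The 9 factors had a lower median of 0.14, and a difference between complexes was not tested. After centring the medians of complexes I to V were 0.12, 0.09, 0.12, 0.13 and 0.11. The nearness of the medians depends on the scale. They were 0.15, 0.12, 0.14, 0.20 and 0.18 after quantile normalization and 0.11, 0.11, 0.13, 0.19 and 0.19 after cyclic loess, higher in complexes IV and V than in I and II. The shares called higher by limma were 20.6%, 25%, 25%, 41.2% and 17.6% in complexes I to V, against 23.4% of all probe sets. After centring they were 8.82%, 0%, 0%, 29.4% and 5.88%, against 14.7%. The plot of differences by complex shows the single genes behind the medians.

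In complex I, the NADH dehydrogenase, all 34 genes had a difference above 0 (27 after centring), between 0.02 and 0.57. Limma called 7 (20.6%) higher and 0 lower, against 23.4% and 9.71% of all probe sets. After centring 3 were called higher, against 14.7% of all probe sets. At an unadjusted p below 0.05, 15 were higher and 0 lower, against 32.0% and 12.6%. The groups did not overlap in 29, all higher, against a background of 48.4% apart and higher. Ndufc2, an accessory subunit of the membrane arm, had 10.10 and 10.14 on the titled ketamine arrays, against 9.55 and 9.54 on the titled saline arrays. The titled ketamine arrays lay well above the others and the difference was 0.57 (SE 0.104, limma adjusted p = 0.00625). Ndufs4, an accessory subunit of the matrix arm whose loss causes Leigh syndrome in people and a like disease in mice, had 9.40 and 9.66 on the titled ketamine arrays, against 8.98 and 9.04 on the titled saline arrays. The groups did not overlap, and the difference was 0.52 (SE 0.124, limma adjusted p = 0.0176). Ndufs1, the largest core subunit and the carrier of several iron-sulphur clusters, had 10.18 and 10.24 on the titled ketamine arrays, against 9.75 and 9.70 on the titled saline arrays, a difference of 0.49 (SE 0.105, limma adjusted p = 0.0123). The other 4 called genes were the accessory subunits Ndufb2, Ndufa6, Ndufa5 and Ndufa1, with differences of 0.42, 0.41, 0.34 and 0.33. At the low end stood Ndufb9, an accessory subunit of the membrane arm, with 8.64 and 8.86 on the titled ketamine arrays, against 8.62 and 8.84 on the titled saline arrays. Its groups overlapped, with a difference of 0.02 (SE 0.132, limma adjusted p = 0.920). The 6 core subunits had a median of 0.28 and 1 call, and the 28 accessory subunits had a median of 0.24 and 6 calls.

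In complex II, succinate dehydrogenase, which also belongs to the citrate cycle and holds no subunit encoded in mitochondrial DNA, Sdhd was called higher and the other 3 genes did not pass, while under centring, quantile normalization and cyclic loess 0 of the 4 were called by limma (1 at an unadjusted p below 0.05 under each). Sdhd, a membrane anchor, had 9.18 and 9.25 on the titled ketamine arrays, against 8.77 and 8.82 on the titled saline arrays. The groups did not overlap and the difference was 0.42 (SE 0.106, limma adjusted p = 0.0219), or 0.28 after centring, where it did not pass (limma adjusted p = 0.0894). Sdhc, the other membrane anchor, had 9.28 and 9.32 on the titled ketamine arrays, against 9.17 and 9.22 on the titled saline arrays, with a difference of 0.11 (SE 0.104, limma adjusted p = 0.468). Both anchors had titled ketamine arrays above titled saline arrays, by unlike amounts, although the difference of Sdhc was -0.03 after centring. Sdha, the flavoprotein that oxidizes succinate, had 10.46 and 10.57 on the titled ketamine arrays, against 10.29 and 10.32 on the titled saline arrays, a difference of 0.21 (SE 0.107, limma adjusted p = 0.167). Sdhb, the iron-sulphur subunit, had 8.41 and 8.68 on the titled ketamine arrays, against 8.14 and 8.48 on the titled saline arrays, a difference of 0.24 (SE 0.153, limma adjusted p = 0.275). Its groups overlapped, since the lower titled ketamine array lay below the higher titled saline array. With single arrays left out the median of the 4 genes lay between 0.13, without titled ketamine replicate 2, and 0.32, without titled ketamine replicate 1.

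In complex III, ubiquinol-cytochrome c reductase, all 8 genes had a difference above 0 (7 after centring), and Uqcrfs1 and Uqcrh were called higher. Under centring, quantile normalization and cyclic loess limma called 0 of the 8, with 1 at an unadjusted p below 0.05 under each, and after centring Uqcrfs1 had an adjusted p of 0.0731 and Uqcrh of 0.206. Uqcrfs1, the Rieske iron-sulphur protein that takes the first electron from ubiquinol, had 8.01 and 8.07 on the titled ketamine arrays, against 7.62 and 7.58 on the titled saline arrays. The difference was 0.44 (SE 0.105, limma adjusted p = 0.0181) with no overlap. Uqcrh, the hinge protein beside cytochrome c1, had 9.26 and 9.34 on the titled ketamine arrays, against 8.98 and 8.93 on the titled saline arrays, a difference of 0.34 (limma adjusted p = 0.0447). The lowest difference was that of Uqcr10, a small accessory subunit, with 7.86 and 7.91 on the titled ketamine arrays, against 7.71 and 7.80 on the titled saline arrays, a difference of 0.13 (SE 0.107, limma adjusted p = 0.392).

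**Figure D2:**
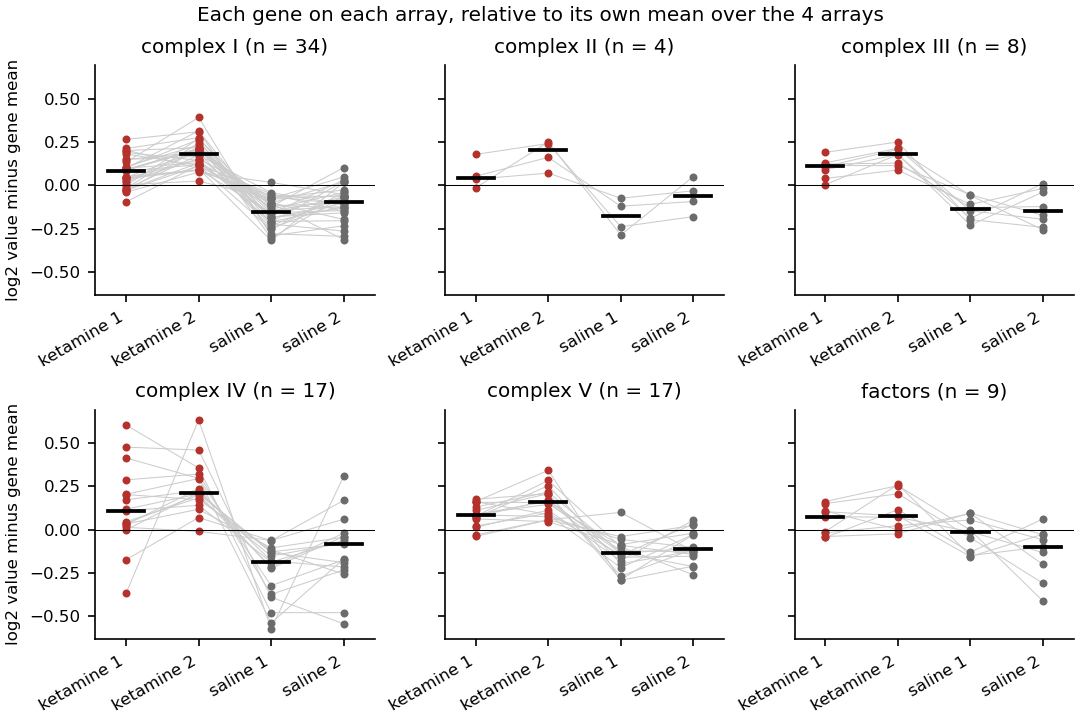
Value of each gene on each of the 4 arrays as log2 value minus the mean of that gene over the arrays, by complex (points joined by gene, bars at the median of each array). Over all 89 genes the array medians were 0.09 and 0.18 on the titled ketamine arrays, against -0.15 and -0.10 on the titled saline arrays.

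The arrays of a group also differed slightly for these genes. Taken relative to the mean of each gene, the member medians were 0.09 and 0.18 on titled ketamine replicates 1 and 2, against -0.15 and -0.10 on titled saline replicates 1 and 2. The second titled ketamine array was above the first in 73 of 89 members, with a median gap of 0.085 and, in complex I, in 31 of 34 with a median gap of 0.12. The second titled saline array was above the first in 58 members, with a median gap of 0.051. Over all probe sets these gaps were -0.002 and 0.000, so the members also differed together between arrays of 1 group. These gaps are near in size to the centred difference between the groups, 0.11 over all members and 0.12 in complex I, so the centred shift of the members is not clearly larger than the spread between replicates.

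Complex IV, cytochrome c oxidase, held the widest range of all the complexes, from -0.10 to 0.96. Limma called 7 of its 17 genes (41.2%) higher and 0 lower, against 23.4% and 9.71% of all probe sets. After centring 5 (29.4%) were called higher, against 14.7%. At an unadjusted p below 0.05, 8 were higher and 0 lower on the deposited scale, against 32.0% and 12.6%. Several of its subunits exist as a widely used form and as a form known mainly from muscle, lung or testis. The 10 general subunits had a median of 0.24, a range of 0.00 to 0.40 and 1 call (10%), or 0 after centring. The 7 forms known from muscle, lung or testis had a median of 0.61 and 6 calls (85.7%), or 5 after centring. Without these 7, 14 of 82 members (17.1%) were called higher, against 23.4% of all probe sets. After centring 4 of the 82 (4.88%) were called higher, against 14.7%. On the deposited scale 81 of the 82 differences were above 0 and the median was 0.24. The restricted forms therefore held the top of the range and 6 of the 20 calls. The sign and the median of the members did not turn on them, while the share called was lower without them.

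Cox4i1, the widely used form of the regulatory subunit IV, had 9.96 and 10.12 on the titled ketamine arrays, against 9.71 and 9.90 on the titled saline arrays, a difference of 0.24 (limma adjusted p = 0.183). Cox4i2, the form known from lung, had 5.516 and 5.549 on the titled ketamine arrays, against 4.856 and 4.996 on the titled saline arrays, a difference of 0.61 (SE 0.110, limma adjusted p = 0.00626). Both forms lay higher, without overlap, and only Cox4i2 passed the test. Cox6b1, the widely used subunit VIb at the face of the enzyme that meets cytochrome c, had 9.67 and 9.65 on the titled ketamine arrays, against 9.60 and 9.72 on the titled saline arrays, with a difference of 0.00 (limma adjusted p = 0.987). Cox6b2, the testis form, had 5.43 and 5.31 on the titled ketamine arrays, against 4.48 and 4.84 on the titled saline arrays, a difference of 0.71 (SE 0.145, limma adjusted p = 0.0101). The 2 forms of subunit VIb thus gave unlike values, with overlap in Cox6b1 and none in Cox6b2.

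Cox7a2, the widely used subunit VIIa, had 9.52 and 9.61 on the titled ketamine arrays, against 9.27 and 9.21 on the titled saline arrays, a difference of 0.32 (limma adjusted p = 0.0551). Cox7a1, the form of heart and skeletal muscle, had 6.55 and 6.53 on the titled ketamine arrays, against 5.69 and 5.53 on the titled saline arrays, a difference of 0.93 (SE 0.111, limma adjusted p = 0.00108). Cox7a1 had the smallest adjusted p of the members, and its arrays within a group differed by far less than the groups did. Cox6a1, the widely used subunit VIa, had 10.40 and 10.60 on the titled ketamine arrays, against 10.14 and 10.33 on the titled saline arrays, a difference of 0.26 (limma adjusted p = 0.151). Cox6a2, the muscle form, had 5.85 and 6.09 on the titled ketamine arrays, against 5.96 and 6.19 on the titled saline arrays, a difference of -0.10 (SE 0.136, limma adjusted p = 0.591). Its groups overlapped, so it was the 1 restricted form of the 7 that did not pass.

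Cox8a, the widely used subunit VIII, had 10.43 and 10.47 on the titled ketamine arrays, against 10.14 and 10.26 on the titled saline arrays, a difference of 0.25 (limma adjusted p = 0.121). Cox8b, the muscle form, had 5.08 and 5.05 on the titled ketamine arrays, against 4.76 and 4.62 on the titled saline arrays. The difference was 0.37 (limma adjusted p = 0.0374). Cox8b did not pass after centring (limma adjusted p = 0.161), quantile normalization (0.185) or cyclic loess (0.241). Cox8c, the testis form, had 5.29 and 5.38 on the titled ketamine arrays, against 4.76 and 4.91 on the titled saline arrays, a difference of 0.50 (limma adjusted p = 0.0150). All 3 had groups that did not overlap. Cox7b, the widely used subunit VIIb, had 9.44 and 10.44 on the titled ketamine arrays, against 9.24 and 10.12 on the titled saline arrays, a difference of 0.26 with the widest error among the genes named here (SE 0.367, limma adjusted p = 0.614). The second array exceeded the first by 1.00 in the titled ketamine pair and by 0.88 in the titled saline pair, so the gap between arrays of a group exceeded the gap between the groups, and the direction turned without titled ketamine replicate 2 (-0.24) or titled saline replicate 1 (-0.18). Cox7b2, the testis form, had 4.54 and 4.29 on the titled ketamine arrays, against 3.46 and 3.46 on the titled saline arrays, a difference of 0.96 (SE 0.122, limma adjusted p = 0.00145).

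The low level of the restricted forms bears on these sizes. Probe sets of olfactory receptor genes, which brain tissue is not known to use widely, gave a 95th percentile of 4.56 and 4.46 on the titled ketamine arrays, against 4.20 and 4.43 on the titled saline arrays. Cox7b2 lay below this on all 4 arrays, so the size of its difference is not resolved, while the other restricted forms lay above it on every array. In the log2 band from 4 to 6, 24.0% of all probe sets were called higher and their median difference was 0.15. The 6 members in the band were the restricted forms Cox6b2, Cox4i2, Cox8c and Cox8b and the factors Ndufaf6 and Ndufa4l2. These 6 had a median of 0.44, and 4 of them were called higher.

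**Figure D3:**
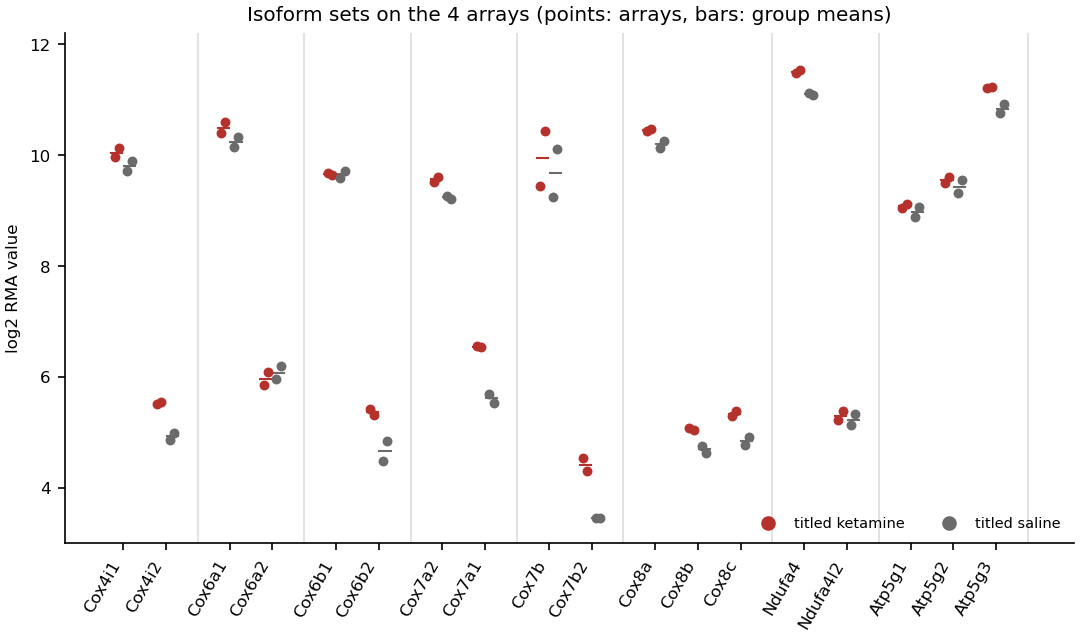
Log2 RMA value of the isoform sets on each array (red, titled ketamine; grey, titled saline; bars at the group means). The titled ketamine arrays lie above both titled saline arrays in Cox4i2, Cox6b2, Cox7a1, Cox7b2, Cox8b and Cox8c, but not in Cox6a2, and levels of different genes are not comparable because their probes differ.

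Set against its partner on the same arrays, the difference of Cox7a1 exceeded that of Cox7a2 by 0.61, that of Cox6b2 exceeded Cox6b1 by 0.70, that of Cox4i2 exceeded Cox4i1 by 0.37 and that of Cox8c exceeded Cox8a by 0.25, each with no overlap between the groups. The gap was 0.69 for Cox7b2 over Cox7b and 0.13 for Cox8b over Cox8a, and in both pairs the groups overlapped. Cox6a2 against Cox6a1 ran the other way, at -0.37, also with no overlap between the groups. These gaps between partners have no test. Ndufa4, first placed in complex I and now counted with complex IV, had 11.48 and 11.53 on the titled ketamine arrays, against 11.12 and 11.09 on the titled saline arrays, a difference of 0.40 (limma adjusted p = 0.0258). It was the single general subunit of complex IV to be called. Its relative Ndufa4l2, a hypoxia-induced gene counted here with the factors, had 5.22 and 5.38 on the titled ketamine arrays, against 5.14 and 5.32 on the titled saline arrays, a difference of 0.07 (limma adjusted p = 0.695). The gap of Ndufa4l2 to Ndufa4 was -0.33, with no overlap between the groups and again no test.

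In complex V, the ATP synthase, all 17 genes had a difference above 0 (12 after centring), between 0.02 and 0.50. Called higher were 3 (17.6%, against 23.4% of all probe sets), all in the membrane part and the peripheral stalk. After centring and after quantile normalization 1 gene, Atp5l, was called, and after cyclic loess 0 were (5 at an unadjusted p below 0.05). Atp5l, the g subunit of the membrane part, had 8.86 and 9.04 on the titled ketamine arrays, against 8.41 and 8.49 on the titled saline arrays. The difference was 0.50 (SE 0.116, limma adjusted p = 0.0156), and all 6 probe sets annotated to Atp5l were called, with differences between 0.48 and 0.61. Several probe sets of so small a gene may read near-identical copies, and which locus each reads is not resolved here. The c subunit, which forms the rotating ring, is encoded by Atp5g1, Atp5g2 and Atp5g3, which differ in the presequence that is cut off on import. Atp5g3 had 11.20 and 11.24 on the titled ketamine arrays, against 10.76 and 10.92 on the titled saline arrays, a difference of 0.38 (limma adjusted p = 0.0365). Atp5g1 had 9.05 and 9.12 on the titled ketamine arrays, against 8.88 and 9.06 on the titled saline arrays, a difference of 0.11 (limma adjusted p = 0.477). Atp5g2 had 9.51 and 9.61 on the titled ketamine arrays, against 9.31 and 9.55 on the titled saline arrays, a difference of 0.12 (limma adjusted p = 0.470). Thus 1 of the 3 genes passed, and the difference of Atp5g3 exceeded that of Atp5g1 by 0.27 with no overlap between the groups.

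The third called gene was Atp5h, subunit d of the peripheral stalk, with 11.03 and 11.11 on the titled ketamine arrays, against 10.76 and 10.69 on the titled saline arrays, a difference of 0.35 (limma adjusted p = 0.0452). In the catalytic F1 part, counted with the central stalk, limma called 0 of 5 genes, with 1 at an unadjusted p below 0.05, and the median was 0.23. With the trend and robust options, however, 2 of the 5 were called, beside 7 of the 12 other genes. Atp5b, the catalytic beta subunit, had 12.15 and 12.15 on the titled ketamine arrays, against 11.84 and 11.84 on the titled saline arrays, a difference of 0.31 (SE 0.103, limma adjusted p = 0.0548). Its arrays of a group were almost identical, and it narrowly missed the threshold. Atp5d, the delta subunit of the central stalk, had 10.48 and 10.58 on the titled ketamine arrays, against 10.48 and 10.55 on the titled saline arrays, with a difference of 0.02 (limma adjusted p = 0.925). The 12 genes of the membrane part and the peripheral stalk had a median of 0.28.

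Among the 9 factors, limma called none, with 2 at an unadjusted p below 0.05, and the differences lay between -0.06 and 0.41. Ndufaf2, an assembly factor of complex I, had 7.55 and 7.65 on the titled ketamine arrays, against 7.39 and 6.98 on the titled saline arrays, a difference of 0.41 (limma adjusted p = 0.0742), the largest that was not called. It moved to 0.21 without titled saline replicate 2 and to 0.62 without titled saline replicate 1. Ndufaf7, a methyltransferase that acts on a core subunit of complex I, was the 1 member besides Cox6a2 with a difference below 0, at -0.06 (limma adjusted p = 0.680). The called and uncalled genes met without a gap, since the smallest called difference was 0.33 (Ndufa1).

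Of the 17 genes with several probe sets, 1 had all of them called (Atp5l), 3 had some (Atp5h, Atp5pb and Ndufc1) and 13 had none, and in 16 the probe sets gave 1 sign. Atp5md was the exception, between -0.01 and 0.09. Cox7a2l, a supercomplex factor, gave 0.00, the value used, and 0.35. Which locus each probe set of these genes reads is not resolved here either. The 6 probe sets that name a member with a second symbol, for Cox7c, Ndufs5 and Ndufb4, were left out of the counts and had differences between 0.23 and 0.34.

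**Figure D4:**
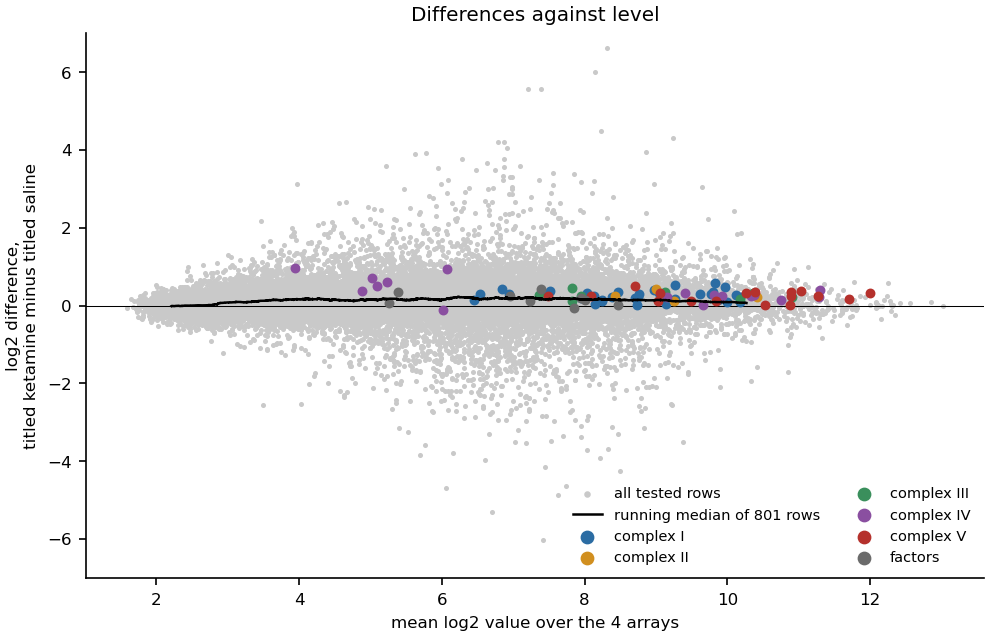
Log2 difference against the mean log2 value over the 4 arrays for all tested probe sets (grey) with their running median (line) and the 89 genes coloured by complex. Most of the 89 genes lie at high levels, and all lie within -0.10 to 0.96, while other probe sets reach -6.03 and 6.62. From 10 to 14 the 22 members had a median of 0.24, against 0.05 for all probe sets in that band.

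The members were measured at high levels, 82 of 89 at or above the median level of all probe sets. With only those probe sets tested, 28 of the 82 were called higher, against a background of 34.8%. In the log2 band from 8 to 10 the 41 members had a median difference of 0.24, against 0.14 for all probe sets, and from 10 to 14 the 22 members had a median of 0.24, against 0.05 for all 576. The plot of difference against level shows the members as a narrow band among probe sets that spread far wider.

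Genes around the respiratory chain were counted in the same way. The background for the lists below was 23.4% called higher and 9.71% lower, or 14.7% and 14.7% after centring. Of 15 measured genes of the citrate cycle and pyruvate dehydrogenase, which supply its electrons, 3 were called higher and 0 lower, with a median of 0.26, and Idh3g and Pdhb led with 0.51 and 0.46. Of 9 genes for exchange of ADP, phosphate and pyruvate across the membranes, 3 were higher and 0 lower, with a median of 0.27, and Mpc1, a subunit of the pyruvate carrier, and Slc25a3, the phosphate carrier, led with 0.54 and 0.42. After centring 1 gene of each list was called higher, a share below the background in both, and the medians were 0.12 and 0.13. Of 20 electron carriers and factors of complexes III, IV and V outside the naming rule, 6 were higher and 2 lower with a median of 0.17, led by the electron transfer flavoprotein subunit Etfa (0.78) and the coenzyme Q hydroxylase Coq7 (0.57). The 2 lower genes were Ttc19 and the complex III assembly factor Bcs1l. After centring 3 were higher and 2 lower with a median of 0.03, and after cyclic loess the median was -0.01. Of 77 genes of the mitochondrial ribosome, which translates the subunits encoded in mitochondrial DNA, 18 were higher and 0 lower with a median of 0.19, led by Mrpl33 (0.83) and Mrpl57 (0.72). The share called higher was close to the background. After centring 5 were higher, a share below the background, and the median was 0.05.

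**Figure D5:**
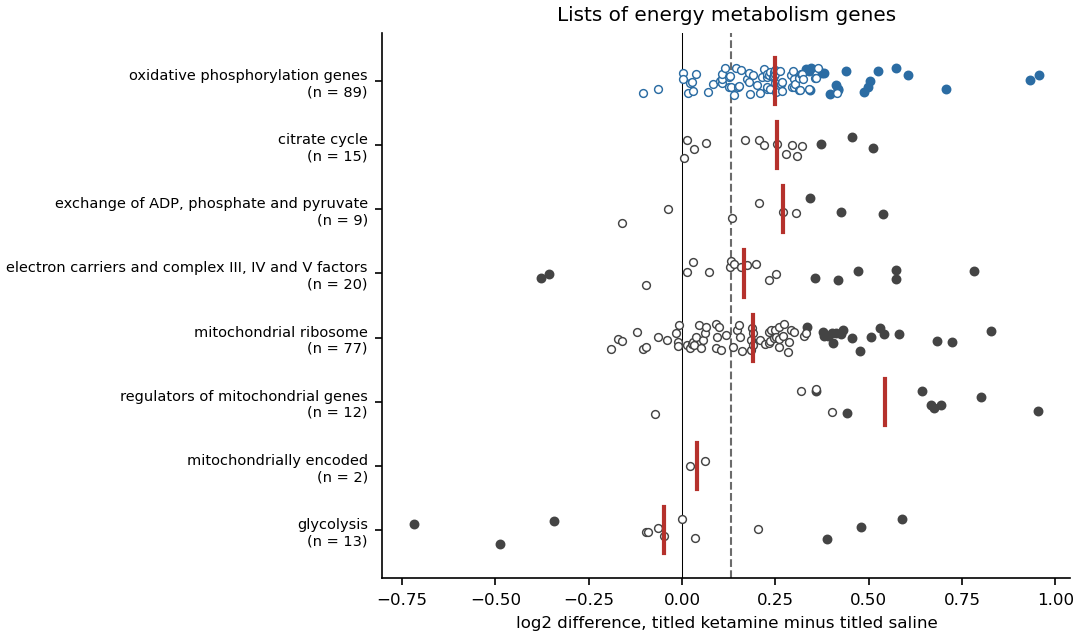
Log2 difference of each gene in the oxidative phosphorylation set (blue) and 7 further lists (dark grey), with the median of each list (red bar), 0 (solid line) and the median of all tested probe sets (dashed line at 0.13). Filled points passed an adjusted p of 0.05, and the regulators have the highest median at 0.54 and glycolysis the lowest at -0.05.

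The regulators of mitochondrial genes had a higher median than the members, 0.54 before and 0.41 after centring, with 8 of 12 called higher (6 after centring) and 0 lower. Esrrg, a nuclear receptor that drives respiratory genes, had 8.03 and 7.92 on the titled ketamine arrays, against 7.02 and 7.02 on the titled saline arrays, a difference of 0.95 (limma adjusted p = 0.000864). Tfam, which packs and transcribes mitochondrial DNA, had 7.72 and 7.85 on the titled ketamine arrays, against 7.14 and 6.84 on the titled saline arrays, a difference of 0.80 (limma adjusted p = 0.00469). Both had groups that did not overlap. Nrf1, whose motif was searched above, had a difference of 0.67, and Yy1, whose motif was searched as well, had -0.07. The mitochondrially encoded COX2 and ND3, core subunits of complexes IV and I, had differences of 0.02 and 0.06 and were not called. A second probe set of each had 0.03 for COX2 and 0.17 for ND3, and neither was called. In glycolysis the calls ran both ways, with 3 of 13 genes higher (Aldoc, Ldhb and Pfkm), 3 lower (Pfkl, Ldha and Pfkp) and a median of -0.05, or -0.19 after centring, where 1 gene was higher and 3 were lower. The liver-type phosphofructokinase Pfkl was lowest at -0.72 and Aldoc, the brain aldolase, highest at 0.59. The lactate dehydrogenase subunits Ldhb and Ldha had 0.48 and -0.49, and after centring Ldhb (limma adjusted p = 0.0506) and Pfkm (0.123) did not pass. The neighbouring lists differ in these values, and their part in the result for the members was not tested.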

How the data were processed

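RNA of 4 samples was hybridised to Mouse Gene 1.0 ST arrays, 1 per array. The authors deposited log2 values made with RMA, a method that usually corrects background, quantile-normalizes and summarises probes. The deposited log2 values were used unchanged as the main scale, although their array medians differ. Scale and log base were read from the values, and no sample column was left unused. The genome build of the array annotation is not given in the sources used here. Genes were named through the platform's probe table, which gave 21789 of 35556 probe sets 1 symbol, 1621 several and 12146 none.

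Arrays were grouped by title. Both groups were fitted with limma 3.58.1 in R 4.3.3 (lmFit, eBayes), which left 2 residual degrees of freedom, with Benjamini-Hochberg adjustment over the 21789 probe sets and an adjusted p of 0.05 as the threshold. The fit was tested on simulated data. Alternatives were median centring, quantile normalization, only probe sets at or above the median level, the mean of the probe sets of a gene, a replicate block, limma's trend and robust options, complexes assigned by symbol, and leaving out each array. Cyclic loess and complex IV without restricted isoforms were chosen after seeing the data. Members and lists were chosen with earlier results of these data known.

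Genes were named by rule: the 6 largest differences each way among members whose groups did not overlap, the highest and lowest subunit of each complex, all of complex II, the isoform sets, and at most 2 genes a list. On the deposited scale no member with a difference below 0 had groups apart. Ndufs1, Ndufb2, Ndufa6, Ndufa5, Ndufa1, Uqcrh, Atp5h, Atp5b, Ndufaf2, Ndufaf7, Cox7a2l, Atp5md, Atp5pb, Ndufc1, Ttc19, Bcs1l, Ldha, Ldhb, Pfkm, Pfkp, Nrf1, Yy1 and the 2 markers were named after their values were seen. Promoter windows came from RefSeq (GRCm38.p6), and motifs were counted as exact matches on both strands.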

Additional observations from a re-analysis of the deposited data

How the results depend on the processing

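No alternative called a member lower in limma's test, and at an unadjusted p below 0.05 cyclic loess gave 1 lower member and the others 0. With each array centred on its median, 9 members were called and 6 passed 1.3-fold, and the medians were 0.11 for all members and 0.12, 0.089, 0.12, 0.13 and 0.11 for complexes I to V. With quantile normalization, 10 were called and 8 passed 1.3-fold, with medians of 0.15 for all members, 0.15 for complex I, 0.12 for II, 0.14 for III, 0.20 for IV and 0.18 for V. With cyclic loess, 9 were called and 7 passed 1.3-fold, with medians of 0.14 for all members, 0.11 for complex I, 0.11 for II, 0.13 for III, 0.19 for IV and 0.19 for V. The members called under each of these 3 scalings were all among the 20. After quantile normalization and cyclic loess, 3368 and 3134 of all 21789 probe sets were higher past 1.3-fold, larger shares than among the members. Probe sets at or above the median level gave 28 calls among 82 members (34.1%, against 34.8% of all probe sets in that fit), 15 of them among the 20. That fit tested fewer probe sets and estimated the error anew, and the cause of the added calls was not tested. The trend and robust options of limma gave 41 calls (46.1% of members, against 26.8% of all probe sets called higher), 19 of them among the 20, and the cause was not tested.

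Genes near 0 changed sign with the scaling. On the deposited scale 2 of the 89 members lay below 0. After centring 20 did, after quantile normalization 15 and after cyclic loess 19. The values that follow are only those of the 29 genes named by rule that changed sign. After centring the differences were -0.12 for Ndufb9, -0.030 for Sdhc, -0.0081 for Uqcr10, -0.12 for Atp5d, -0.13 for Cox6b1, -0.067 for Ndufa4l2, -0.021 for Atp5g1 and -0.011 for Atp5g2. After quantile normalization they were -0.095 for Ndufb9, -0.013 for Sdhc, -0.014 for Uqcr10, -0.056 for Atp5d, -0.092 for Cox6b1, -0.084 for Ndufa4l2 and -0.0013 for Atp5g1. After cyclic loess they were -0.12 for Ndufb9, -0.018 for Sdhc, -0.050 for Uqcr10, -0.055 for Atp5d, -0.10 for Cox6b1, -0.11 for Ndufa4l2 and -0.018 for Atp5g1.

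With 1 array left out, which leaves a lone array assumed to vary like the other group, between 0 and 7 members were called and between 13 and 26 passed 1.3-fold. The member median lay between 0.21 and 0.31, that of complex I between 0.20 and 0.31, of II between 0.13 and 0.32, of III between 0.24 and 0.29, of IV between 0.19 and 0.37 and of V between 0.21 and 0.29. With an array left out the difference changed sign in 11 of the 89 members, among them Cox6a2 (-0.23 to 0.017), Cox6b1 (-0.058 to 0.064), Ndufb9 (-0.092 to 0.13), Atp5d (-0.031 to 0.064), Cox7b (-0.24 to 0.76), Ndufa4l2 (-0.025 to 0.16), Atp5md (-0.086 to 0.14) and Cox7a2l (-0.054 to 0.061), and the other 3 were Ndufs6, Ndufa8 and Ndufaf4.

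The samples share replicate numbers only as numbers. Over 2 pairs, deviations of arrays numbered alike correlated at 0.034, and with the replicate block 24 members were called (27.0%, against 27.1% of all probe sets), 19 of them among the 20, with 1 residual degree of freedom. The mean over the probe sets of a gene gave 20 calls, 19 of them among the 20, and 17 genes past 1.3-fold. Complexes assigned by symbol gave medians of 0.25 for I and 0.26 for IV, and complex IV without the restricted isoforms had 0.24. Precision is limited by 2 arrays per group and, for the restricted isoforms, by low signals. Of these isoforms only Cox7b2 lay below the 95th percentile of the olfactory receptor probe sets.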
